A study of Homo sapiens with 12 samples.

Results

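The replication-dependent histone genes encode the core histones H2A, H2B, H3 and H4 and the linker histone H1. They were taken by name: rows whose symbol began with HIST, a digit and H, without those ending in PS and a number, which marks pseudogenes. Of 92 such rows among 63677 genes in the count file, 33 reached 10 counts in 3 or more samples and are described here. They comprised 1 of 6 H1 rows, 9 of 21 H2A rows, 11 of 29 H2B rows, 6 of 19 H3 rows and 6 of 17 H4 rows. The other 59 rows were under this limit, and 20 of them had no count in any sample. Some symbols had more than 1 row, HIST2H2BE, HIST2H2AC and HIST1H4A among them, and their further rows had no counts. Rows therefore outnumber genes. Just inside the limit, HIST1H2AL had 12, 11 and 10 counts in its 3 highest samples. Just outside it, HIST1H4D had 13 and 21 counts in its 2 highest samples and 9 in the next.

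Huh7, a human hepatocarcinoma line, was left untreated or exposed for 6 h to graphene oxide (GO, 400 µg/mL), to GO carrying the ginsenoside Rg3 (GO-Rg3, 400 µg/mL) or to that conjugate loaded with doxorubicin (GO-Rg3-DOX, 100 µg/mL). Doxorubicin is an anthracycline that intercalates into DNA and poisons topoisomerase II. Each of the 4 groups had 3 samples, and poly(A)-selected stranded libraries were sequenced. Since the GO-Rg3-DOX dose differed from the dose of both carriers, it was tested against untreated cells alone, and a group given doxorubicin without a carrier was not analysed here. The labels do not say whether the 3 samples of a group came from separate cultures, so the p-values measure the spread between these samples.

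Replication-dependent histone genes lie in clusters and are transcribed mainly in S phase, when new DNA has to be packed into nucleosomes. NPAT and CASP8AP2 (FLASH) act at the histone locus body, where these genes are transcribed. Their mRNAs usually end in a stem-loop rather than a poly(A) tail: the stem-loop binding protein SLBP and the U7 small nuclear ribonucleoprotein direct the cut just after it. Some of the genes can also give polyadenylated mRNA from a signal further downstream. A poly(A)-selected library therefore captures the usual, tail-less form poorly, and all levels below are those of RNA that this preparation retained, not of total histone mRNA.

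The libraries held 27802871 to 38877420 counts, and CPM (read counts scaled to a common library size) are given on the TMM scale, which adjusts for the composition of each library. Mitochondrially encoded genes took 5.31 to 6.28% of the counts in untreated samples, 12.1 to 24.1% with GO, 6.89 to 7.42% with GO-Rg3 and 12.8 to 19.4% with GO-Rg3-DOX. GO replicate 1 and GO-Rg3-DOX replicate 1 had the highest shares, and their part in the results was not tested beyond leaving each of them out. The 8 hepatocyte markers were all detected, summed to 23529 to 23675 CPM in untreated and 31364 to 36780 CPM in GO-Rg3-DOX samples, and 7 of them were higher with GO-Rg3-DOX at an adjusted p below 0.01. Of 5 leukocyte markers, MS4A1 was at 0 and the sum was 1.25 to 1.72 CPM in untreated and 3.25 to 3.81 CPM in GO-Rg3-DOX samples. Of 4 endothelial markers, PECAM1 and KDR were at 0, and the sum was at most 0.700 CPM. All 5 fibroblast markers were detected, with sums of 4.57 to 5.75 CPM in untreated and 12.97 to 16.3 CPM in GO-Rg3-DOX samples. Their part in the histone results was not tested.

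The stem-loop was read from the genome as a check of what kind of genes these are. Its constant letters (GG, CTTTT, AG and CC at fixed spacing over 16 bases) were searched on the coding strand in the 150 bases after each stop codon (GENCODE release 44 placed on GRCh37). It was found in 30 of the 31 members with a position in that annotation, and in 67 of 20047 coding genes in all (0.334%), of which 61 were named as replication-dependent histones. HIST1H3E had no match, and HIST1H2BF and HIST1H2BG had no position. The 30 matches were made of 6 sequences, shown here because they are the element that sets this gene family apart, with capitals where a letter differs from the commonest sequence.
HIST1H3B, HIST1H2AB, HIST1H2AC, HIST2H2BE and 13 others: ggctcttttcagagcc
HIST2H2AB, HIST1H2BC, HIST1H2BD, HIST1H2BJ and HIST1H2BK: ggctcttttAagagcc
HIST4H4, HIST1H4C, HIST1H4E and HIST1H4H: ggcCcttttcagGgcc
HIST1H4I and HIST1H4K: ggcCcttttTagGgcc
HIST1H2AG: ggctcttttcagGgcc
HIST2H2AC: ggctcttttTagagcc

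The promoters, from 250 bases before to 50 bases after the start, were taken from RefSeq (GRCh38.p14) for 30 members. They were searched on both strands for the CCAAT box (CCAAT), the TATA box (TATAAA) and the octamer (ATTTGCAT), and a base could count for more than one motif. CCAAT was in 26 of 30 windows against 34.6% of 35116 promoters, TATAAA in 19 against 11.5%, and the octamer in 15 against 1.77%. The octamer, known as an Oct-1 site of H2B promoters, was in 7 of 9 H2A and 7 of 9 H2B windows, in 1 of 6 H3 windows and in none of 5 H4 windows or the H1 window. Windows of neighbouring members can overlap, so the same site can count for both. HIST2H2BE and HIST2H2AC have the same octamer in both windows, as do HIST1H2BC and HIST1H2AC, and HIST1H2BJ and HIST1H2AG. A match is a string of letters and not a shown binding site. Windows are printed for 4 genes whose levels are central below, with the 3 motifs in capitals. The HIST2H2BE window also holds the start of HIST2H2AC, which runs the opposite way from 236 bases off.
HIST2H2BE (chr1:149886633-149886932, minus strand): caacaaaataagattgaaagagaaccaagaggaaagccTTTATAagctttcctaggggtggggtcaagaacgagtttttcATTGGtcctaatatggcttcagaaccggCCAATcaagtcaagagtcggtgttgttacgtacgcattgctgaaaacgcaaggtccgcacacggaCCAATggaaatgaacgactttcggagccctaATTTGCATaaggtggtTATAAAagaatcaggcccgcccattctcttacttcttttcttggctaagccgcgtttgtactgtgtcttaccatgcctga
HIST1H3B (chr6:26032050-26032349, minus strand): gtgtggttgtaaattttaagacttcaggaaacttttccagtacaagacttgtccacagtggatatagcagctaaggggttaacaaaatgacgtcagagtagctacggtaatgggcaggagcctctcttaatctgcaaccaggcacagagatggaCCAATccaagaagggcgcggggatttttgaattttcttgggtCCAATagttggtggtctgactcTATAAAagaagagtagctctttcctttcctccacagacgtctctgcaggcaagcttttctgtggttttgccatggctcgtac
HIST1H2AB (chr6:26033569-26033868, minus strand): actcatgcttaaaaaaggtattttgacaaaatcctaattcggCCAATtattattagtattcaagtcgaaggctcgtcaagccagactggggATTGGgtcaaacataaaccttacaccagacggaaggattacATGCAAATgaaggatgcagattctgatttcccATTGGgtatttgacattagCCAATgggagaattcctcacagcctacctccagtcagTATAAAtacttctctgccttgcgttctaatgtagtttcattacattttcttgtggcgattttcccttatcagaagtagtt
HIST1H2AC (chr6:26123922-26124221, plus strand): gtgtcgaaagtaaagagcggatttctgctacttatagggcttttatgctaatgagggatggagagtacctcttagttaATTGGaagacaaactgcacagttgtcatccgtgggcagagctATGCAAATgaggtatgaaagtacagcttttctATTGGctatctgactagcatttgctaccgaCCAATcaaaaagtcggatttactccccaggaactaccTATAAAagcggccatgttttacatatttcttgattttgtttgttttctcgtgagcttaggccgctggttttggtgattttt

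Coding sequences of these genes are alike, which bears on how surely reads can be placed. Among 82 histone coding sequences, those of the same length were compared position by position, without alignment. The closest other sequence shared between 33.8 and 100% of the bases of a member, with a median of 89.0%. The 33.8% is that of HIST1H1C against H1-10, as sequences of other lengths were not compared. In 29 of 31 members compared, no stretch as long as a sequencing read recurred in another histone coding sequence. The exceptions were HIST1H4K, whose whole coding sequence of 309 bases is also that of H4C11, and HIST1H2AI, where 75.8% of the windows of read length recur in H2AC14. Values of HIST1H4K and HIST1H2AI are therefore uncertain. Runs slightly shorter than a read also recurred. HIST1H2BK shared 98.9% of its bases and a run of 141 bases with H2BC12L. HIST2H2AC shared a run of 149 bases with H2AC19, and HIST2H2BE and HIST2H2BF shared 140 bases with each other. How surely reads of these genes were placed was not tested. The annotation places 10 members over another gene on the same strand, among them HIST1H2AC, HIST1H2BD, HIST1H2BH, HIST1H3D, HIST1H3E and HIST1H4E, so that their reads could be shared even when strand is used. It places 7 over a gene on the opposite strand, among them HIST2H2AB, HIST2H2BF, HIST1H2BC, HIST1H4C and HIST1H4H. Levels of these genes are uncertain to that extent. Whether strand was used in counting is not given in the sources used here.

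The summed level of the 33 genes was higher with GO-Rg3-DOX and lower with either carrier than in untreated cells. It was 135, 140 and 139 CPM in the untreated samples, 132, 91.1 and 95.2 CPM with GO, 117.7, 100.9 and 108 CPM with GO-Rg3, and 282, 213 and 218 CPM with GO-Rg3-DOX. All 3 GO-Rg3-DOX samples lay above all others, and both carrier groups lay below the untreated group without overlap. The sum rests mostly on a few genes: HIST1H2BK, HIST1H2AC, HIST1H1C and HIST1H2BD together held 86.1% ± 0.952 (SD, n = 3) of the members' reads in untreated cells and 78.9% ± 5.27 (SD, n = 3) with GO-Rg3-DOX. HIST1H2BK, an H2B gene, alone held 43.6% ± 2.32 of them in untreated cells. Without it the sums averaged 77.7 ± 1.69 CPM in untreated cells, 48.4 ± 8.77 CPM with GO, 55.2 ± 1.26 CPM with GO-Rg3 and 118.1 ± 1.46 CPM with GO-Rg3-DOX (SD, n = 3).

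**Figure D1:**
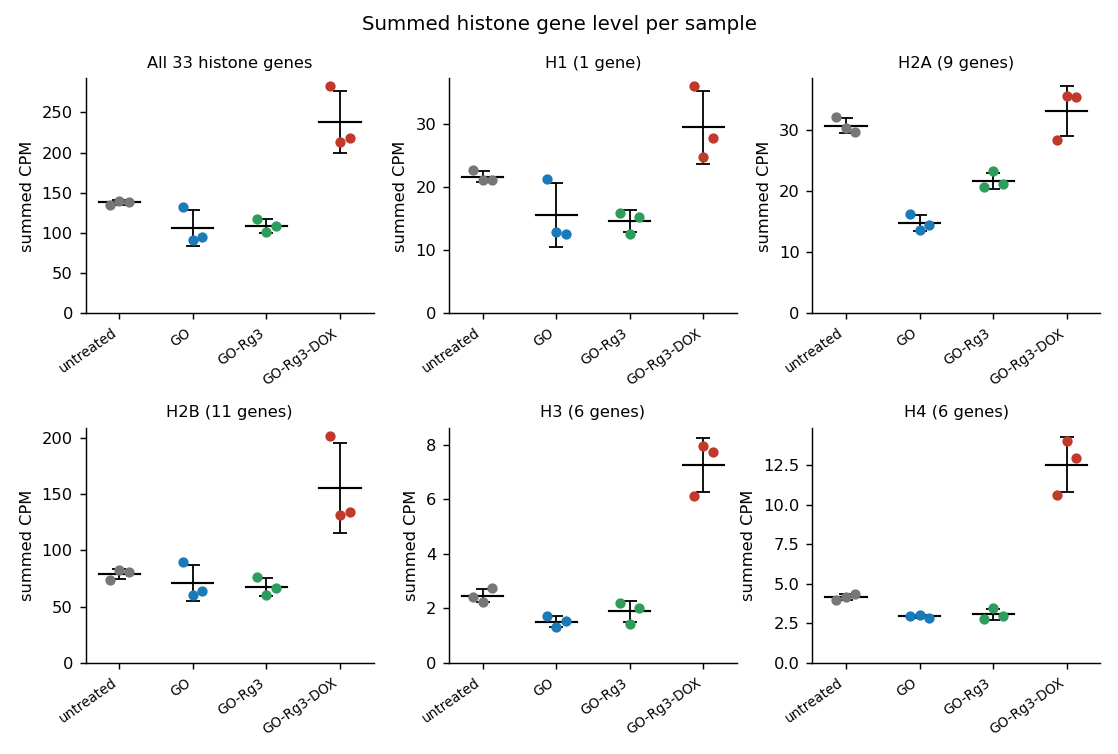
Summed CPM of the 33 histone genes and of each type in the 12 samples. Points are samples, the wide bar is the group mean and the error bar is 1 SD (n = 3); each axis starts at 0. GO-Rg3-DOX samples lie above all others for H2B, H3 and H4, and among the others for H2A.

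The types differed in how far their sums moved. The H4 sum averaged 4.16 ± 0.184 CPM in untreated and 12.5 ± 1.72 CPM in GO-Rg3-DOX samples and the H3 sum 2.47 ± 0.249 and 7.27 ± 0.988 CPM, which is 3.01 and 2.95 times the untreated mean. H2B went from 78.8 ± 4.58 to 155 ± 39.6 CPM, a ratio of 1.97, and H1, which is HIST1H1C alone, from 21.7 ± 0.926 to 29.5 ± 5.81 CPM, a ratio of 1.36. H2A was 30.8 ± 1.31 and 33.2 ± 4.09 CPM, a ratio of 1.08, with GO-Rg3-DOX samples on both sides of the untreated ones. Most of the H2A sum is HIST1H2AC, with means of 27.41 CPM in untreated, 24.87 CPM in GO-Rg3-DOX, 12.05 CPM in GO and 19.25 CPM in GO-Rg3 samples. The H2A ratios therefore mostly describe that gene. With GO-Rg3-DOX, 8 of the 9 H2A genes had positive log2 fold changes and HIST1H2AC a negative one. Among the 4 that pass the count limit without GO-Rg3-DOX samples, 3 were positive. With GO, the H2A sum was 14.8 ± 1.29 CPM, 0.480 times the untreated mean, and with GO-Rg3 it was 21.7 ± 1.35 CPM, 0.705 times that mean (all SD, n = 3). These sums were not tested, and in bulk samples a change in the share of cells of one kind cannot be told apart from a change of RNA per cell. Those of GO-Rg3-DOX take in 13 genes that passed the limit only through GO-Rg3-DOX samples, as fewer than 3 other samples reached 10 counts.

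Against untreated cells, GO-Rg3-DOX raised 17 of the 33 histone genes and lowered none, where a gene was called at an adjusted p below 0.01 with a log2 fold change beyond 1 (edgeR's quasi-likelihood test, Benjamini-Hochberg adjusted over 17092 genes). Among all genes tested, 12.6% were called higher and 18.2% lower. The 17 were 6 of 9 H2A, 4 of 11 H2B, 2 of 6 H3 and 5 of 6 H4 genes. The single H1 gene was not among them. Of these calls, 10 fell on the 13 genes that passed the limit only through their GO-Rg3-DOX samples. That way of passing favours genes higher in that group, so these calls do not count as support. Among the 20 genes that pass without those samples, 7 were called higher: HIST1H2AG, HIST1H2AE, HIST2H2BE, HIST1H2BG, HIST1H3H, HIST1H4H and HIST1H4E. The median log2 fold change of these 20 was 0.72, beside -0.06 for all genes tested. At an adjusted p below 0.01 with any fold change, 10 of these 20 genes were higher and none lower (20 of the 33 higher), with 25.5% and 30.5% of all genes. In 12 of the 20 every GO-Rg3-DOX sample lay above every untreated sample (24 of the 33), and in 1, HIST4H4, below, with 35% and 40.3% of all genes. At an unadjusted p below 0.05 there were 14 of the 20 (26 of the 33), with 69.5% of all genes.

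**Figure D2:**
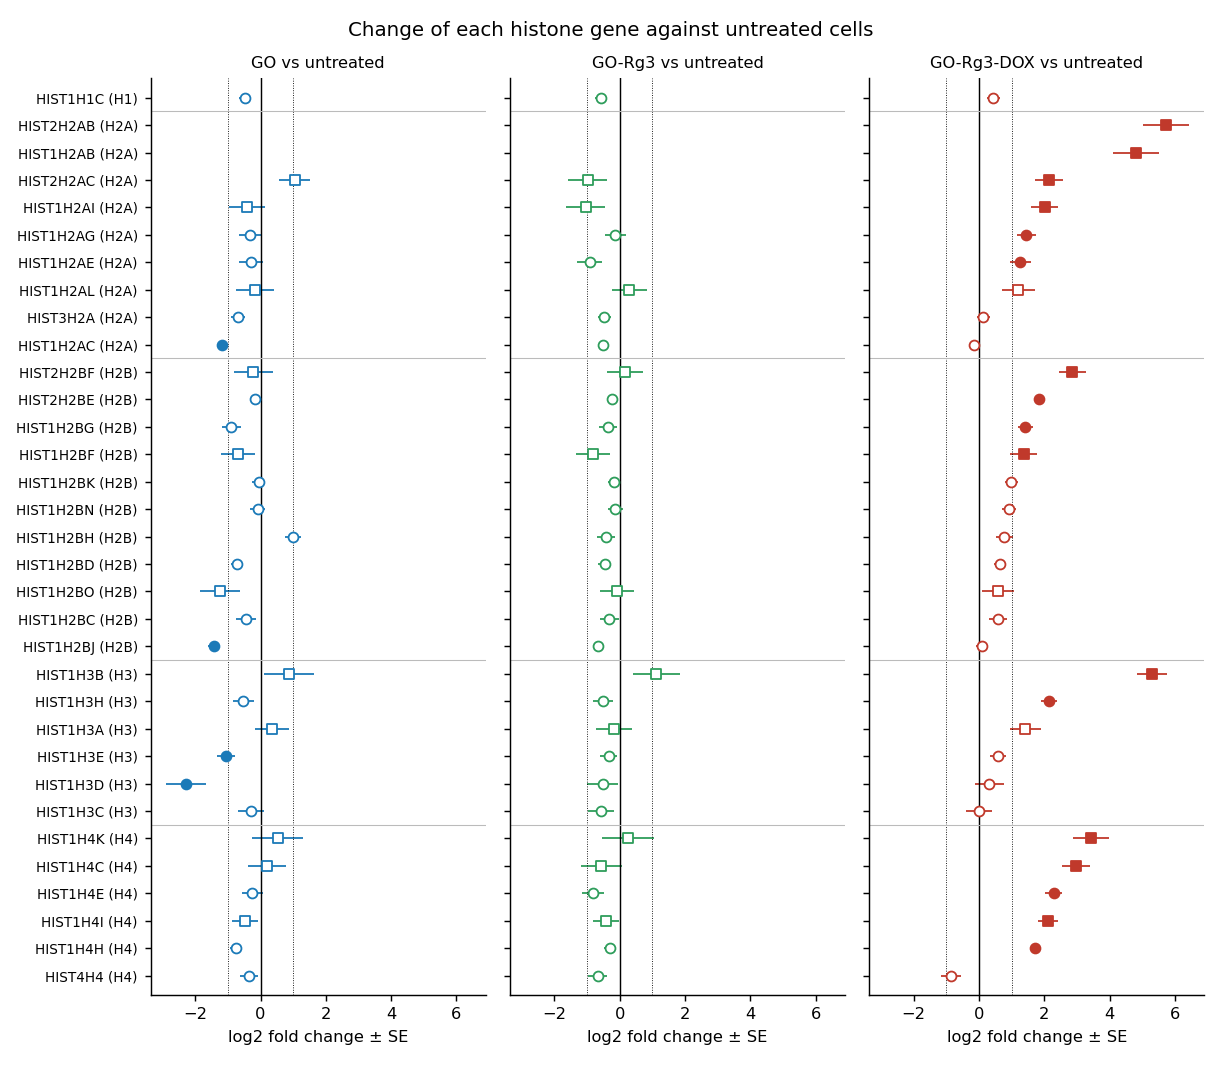
Log2 fold change of each histone gene against untreated cells, with its standard error, in 3 comparisons. Filled symbols were called at an adjusted p below 0.01 beyond a log2 fold change of 1 (dotted lines), squares are the 13 genes that passed the count limit only through GO-Rg3-DOX samples, and HIST2H2AB and HIST1H2AB are left out where both groups had at most 3 counts in every sample. With GO-Rg3-DOX 17 genes were called higher, and with GO 4 were called lower.

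The 3 largest rises with GO-Rg3-DOX were of 2 H2A genes and 1 H3 gene that were almost absent from the other groups. All 3 genes passed the count limit only through their GO-Rg3-DOX samples, so their values are given as a description and the tests against untreated cells do not count as support. HIST2H2AB (chromosome 1, 149859019 to 149859515, GRCh37) had 0, 0 and 1 counts in the untreated samples and 10, 24 and 19 counts with GO-Rg3-DOX. Its levels with GO-Rg3-DOX were 0.412, 0.863 and 0.724 CPM, all apart from the at most 0.0283 CPM of the other 9 samples. Over the pooled samples this was a ratio of 75.5, with a 95% counting interval of 12.97 to 3037. HIST1H2AB (chromosome 6, 26033320 to 26033846) had 3, 0 and 0 counts in untreated samples and 22, 19 and 26 with GO-Rg3-DOX, a ratio of 31.8 with an interval of 10.4 to 158. These exact intervals cover counting error only. The fitted log2 fold changes of HIST2H2AB and HIST1H2AB, 5.73 and 4.81, depend on the prior count.

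HIST1H3B, an H3 gene next to HIST1H2AB on the same strand (chromosome 6, 26031817 to 26032327), had 1, 4 and 1 counts in untreated samples and 56, 59 and 62 with GO-Rg3-DOX. Its levels were 0.0265, 0.128 and 0.0236 CPM in untreated cells and 2.31, 2.12 and 2.36 CPM with GO-Rg3-DOX, so the groups were far apart. The fitted log2 fold change was 5.29 ± 0.45 (SE), again of a gene that the limit kept for its GO-Rg3-DOX samples. With GO its level was 0.157, 0.0268 and 0.141 CPM and with GO-Rg3 0.0541, 0.129 and 0.180 CPM, both overlapping the untreated samples. The promoter windows of HIST1H3B and HIST1H2AB printed above both hold CCAAT and TATAAA, and that of HIST1H2AB alone holds the octamer.

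**Figure D3:**
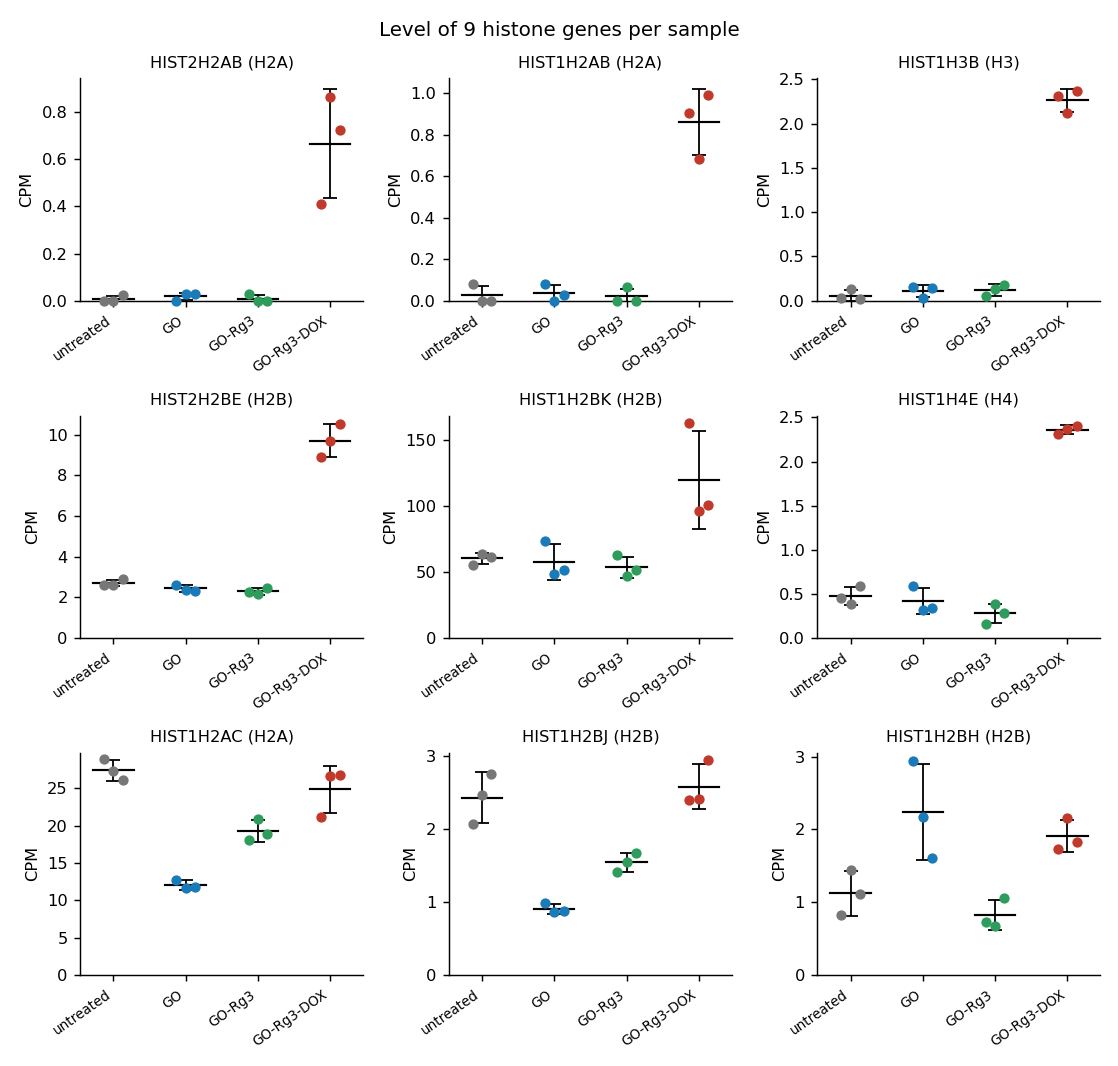
CPM of 9 histone genes in the 12 samples, with group mean (wide bar) and SD (error bar, n = 3); each axis starts at 0. The first 6 are highest with GO-Rg3-DOX, HIST1H2AC and HIST1H2BJ are lowest with GO, and HIST1H2BH is higher with GO than with GO-Rg3.

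Among the H2A genes, HIST1H2AC did not follow the rise. It had 28.9, 27.3 and 26.1 CPM in untreated samples and 21.2, 26.6 and 26.8 CPM with GO-Rg3-DOX, with overlap and a log2 fold change of -0.14 ± 0.11 (SE; adjusted p = 0.28, edgeR). HIST3H2A, the lone member of the HIST3 cluster, had 1.56, 1.44 and 1.84 CPM in untreated samples and 1.36, 2.16 and 1.79 CPM with GO-Rg3-DOX, a log2 fold change of 0.13 ± 0.20. Both genes had groups that overlapped. The other H2A genes called higher were HIST2H2AC, HIST1H2AI, HIST1H2AG and HIST1H2AE, with log2 fold changes of 1.26 to 2.15, and HIST1H2AL had 1.21 with an adjusted p of 0.045 (edgeR). Of these, HIST2H2AC, HIST1H2AI and HIST1H2AL passed the count limit only through their GO-Rg3-DOX samples.

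The H2B genes mostly pointed up. HIST1H2BK had 55.4, 63.8 and 61.5 CPM in untreated samples and 163, 96.3 and 100.5 CPM with GO-Rg3-DOX. All treated samples were above all untreated ones, replicate 1 by the most, and the log2 fold change of 0.99 ± 0.19 (SE; adjusted p = 0.000333, edgeR) fell just short of 1. HIST1H2BD had 10.2, 8.86 and 9.11 CPM against 19.98, 12.9 and 11.5 CPM, a log2 fold change of 0.65 ± 0.19 (adjusted p = 0.0062). The 4 H2B genes called higher were HIST2H2BF (2.86), HIST2H2BE (1.83), HIST1H2BG (1.41) and HIST1H2BF (1.37, all log2). Of these, HIST2H2BF and HIST1H2BF passed the count limit only through their GO-Rg3-DOX samples. HIST2H2BE had 2.62, 2.62 and 2.90 CPM in untreated samples and 8.90, 9.67 and 10.5 CPM with GO-Rg3-DOX. HIST1H2BJ, at 2.06, 2.46 and 2.76 CPM against 2.39, 2.41 and 2.94 CPM, overlapped, with a log2 fold change of 0.09 ± 0.17.

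H3 and H4 genes were read little in untreated cells. HIST1H3H had 0.661, 0.384 and 0.495 CPM in untreated samples and 1.85, 2.66 and 2.36 CPM with GO-Rg3-DOX, a log2 fold change of 2.14 ± 0.26 (SE; adjusted p = 2.86e-06, edgeR). HIST1H3E, without the stem-loop letters, had 0.714, 0.895 and 0.871 CPM against 0.824, 1.55 and 1.33 CPM, which overlapped (log2 fold change 0.59 ± 0.25, adjusted p = 0.047). HIST1H4E had 0.450, 0.384 and 0.589 CPM in untreated samples and 2.31, 2.37 and 2.40 CPM with GO-Rg3-DOX, a log2 fold change of 2.29 ± 0.26 (adjusted p = 1.77e-06). Both HIST1H3H and HIST1H4E were thus separated from the untreated group. HIST1H4H had 1.96, 2.53 and 2.07 CPM against 5.89, 8.09 and 7.32 CPM, a log2 fold change of 1.71 ± 0.16 (adjusted p = 2.14e-07). HIST1H4K, HIST1H4C and HIST1H4I were the other H4 genes called higher, and all of them passed the count limit only through their GO-Rg3-DOX samples. HIST4H4, the only member on chromosome 12, went the other way without passing the test, at 1.16, 0.991 and 1.25 CPM in untreated samples and 0.659, 0.503 and 0.724 CPM with GO-Rg3-DOX (log2 fold change -0.86 ± 0.31, adjusted p = 0.023).

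HIST1H1C, which encodes linker histone H1.2, had 22.8, 21.1 and 21.2 CPM in untreated samples and 36.01, 24.8 and 27.9 CPM with GO-Rg3-DOX. The groups did not overlap, but the log2 fold change of 0.44 ± 0.18 had an adjusted p of 0.045 (edgeR). With the genes of the full count limit kept, leaving out any one of the 6 samples gave 16 to 18 genes called higher with GO-Rg3-DOX, and HIST1H2BF lost its call in each of these fits but that without GO-Rg3-DOX replicate 1, where all 17 calls remained. HIST1H2AE lost its call without untreated replicate 3 and without GO-Rg3-DOX replicate 2.

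Bare GO lowered 4 of the 33 histone genes and raised none, while 2.62% of all genes tested were called lower and 3.84% higher. The 4 were HIST1H2AC, HIST1H2BJ, HIST1H3D and HIST1H3E. HIST1H2AC (chromosome 6, 26124373 to 26139344) had 12.8, 11.6 and 11.8 CPM with GO, well below the 26.1 CPM of the lowest untreated sample, and fell by 1.19 ± 0.11 on the log2 scale (SE; adjusted p = 3.66e-06, edgeR). HIST1H2BJ had 0.979, 0.856 and 0.877 CPM with GO against 2.06, 2.46 and 2.76 CPM in untreated samples, and fell by 1.43 ± 0.18 (adjusted p = 4.17e-05). Both were thus apart from the untreated group, and neither was called with GO-Rg3-DOX. The treated groups were all compared with the same 3 untreated samples, so these comparisons are not independent of each other.

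The H3 genes called lower with GO rested on few reads. HIST1H3D had 0, 6 and 4 counts with GO and 18, 14 and 25 counts in untreated samples, or 0, 0.161 and 0.113 CPM against 0.476, 0.448 and 0.589 CPM. It fell by 2.29 ± 0.61 on the log2 scale (SE; adjusted p = 0.0073, edgeR). HIST1H3E had 0.313, 0.482 and 0.368 CPM with GO, below all untreated samples, and fell by 1.06 ± 0.29 (adjusted p = 0.0083). Leaving out any one of the 6 samples except GO replicate 2 ended the calls of HIST1H3D and HIST1H3E. An offset for GC content ended those of HIST1H2AC and HIST1H3E. HIST1H3E also lost its call with DESeq2, with library totals in place of TMM, with an offset for gene length alone and with only the 6 samples compared.

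At an adjusted p below 0.01 with any fold change, GO gave 6 lower genes and 1 higher, with 15.4% and 12.1% of all genes. HIST1H4H (1.41, 1.28 and 1.16 CPM with GO) and HIST1H2BD (7.13, 4.76 and 5.35 CPM) were the added lower genes, with log2 fold changes of -0.77 ± 0.18 and -0.72 ± 0.19. At an unadjusted p below 0.05 there were 11 of the 33, with 50.7% of all genes. In 8 of the 33 every GO sample lay below every untreated sample and in 2 above, with 29.9% and 28.6% of all genes. Among the 20 genes that pass the count limit without GO-Rg3-DOX samples, these counts were 10, 8 and 1. The higher gene was HIST1H2BH, an H2B gene, at 2.94, 2.17 and 1.61 CPM with GO against 0.820, 1.44 and 1.11 CPM in untreated samples. Its log2 fold change of 0.99 ± 0.25 (adjusted p = 0.0061, edgeR) was just under 1, and the groups did not overlap. HIST1H2BK, the most read of the genes, had 73.6, 48.3 and 51.5 CPM with GO, on both sides of the untreated samples, and HIST1H1C had 21.4, 12.8 and 12.6 CPM (log2 fold change -0.49 ± 0.19, adjusted p = 0.048). GO replicate 1 was the highest of its group for both.

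GO-Rg3 at the same dose moved no histone gene past the test against untreated cells. None of the 33 was called, where 0.0117% of all genes were called higher and 0.0468% lower, and DESeq2 called none as well. None passed an adjusted p below 0.01 with any fold change either, where 0.0585% of all genes were higher and 0.105% lower. At an unadjusted p below 0.05 there were 8, with 13.4% of all genes. In 12 of the 33 every GO-Rg3 sample lay below every untreated sample and in none above, with 16.6% and 9.12% of all genes. All 20 genes that pass the count limit without GO-Rg3-DOX samples had negative log2 fold changes, from -0.92 to -0.13 with a median of -0.47 beside -0.001 for all genes. HIST1H2AC was the nearest to a call, at 18.1, 20.9 and 18.8 CPM (log2 fold change -0.51 ± 0.11, adjusted p = 0.035, edgeR).

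Between the carriers, 1 histone gene was called lower with GO-Rg3 than with GO and none higher, while 2.07% and 0.702% of all genes were. HIST1H2BH had 0.730, 0.675 and 1.06 CPM with GO-Rg3 against 2.94, 2.17 and 1.61 CPM with GO, without overlap, and fell by 1.41 ± 0.27 on the log2 scale (SE; adjusted p = 0.0016, edgeR). This call was lost when only the 6 samples compared were fitted. At an adjusted p below 0.01 with any fold change, HIST1H2AC (0.68 ± 0.11) and HIST1H2BJ (0.78 ± 0.19) were higher with GO-Rg3 and HIST1H2BH alone was lower, with 7.33% and 6.25% of all genes. At an unadjusted p below 0.05 there were 7 of the 33, with 39.8% of all genes. In 6 of the 33 every GO-Rg3 sample lay above every GO sample and in 2 below, with 20.1% and 18.9% of all genes. HIST1H2BJ had 1.41, 1.54 and 1.67 CPM with GO-Rg3, between the GO and the untreated samples without overlap with either.

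The genes with a stem-loop position fall into 2 sets by where their annotated RNA ends, a property the choice of members did not use. HIST1H3E, HIST1H2BF and HIST1H2BG had no such position and are in neither set. In 19 members the annotation ended 4 to 11 bases after the stem-loop, and in 11 it ran on by 769 to 37155 bases. The second set was HIST2H2BF, HIST2H2BE, HIST3H2A, HIST4H4, HIST1H2BC, HIST1H2AC, HIST1H2BD, HIST1H4H, HIST1H2BJ, HIST1H3H and HIST1H2BN. With GO-Rg3-DOX, 3 of 8 genes of the first set and 3 of 10 of the second were called higher among those that pass the count limit without GO-Rg3-DOX samples. Of all genes tested, 12.6% were called higher in that comparison. With GO, 1 of these 8 and 2 of these 10 were called lower, beside 2.62% of all genes. HIST1H2BK, the most read gene, belongs to the first set. The release used for the authors' counting is not given in the sources used here, so these ends may not be those that were counted.

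The summed level of the second set was lower with GO than in untreated cells. The 10 genes summed to 50.6, 48.2 and 48.4 CPM in untreated samples, 28.5, 24.4 and 25.4 CPM with GO, 33.9, 36.5 and 35.7 CPM with GO-Rg3 and 64.7, 68.5 and 66.6 CPM with GO-Rg3-DOX. The 4 groups did not overlap. In the first set, 6 genes other than HIST1H2BK and HIST1H1C summed to 3.33, 3.74 and 4.03 CPM in untreated samples and 5.25, 3.48 and 3.51 CPM with GO, which overlapped. They summed to 2.78, 2.09 and 2.91 CPM with GO-Rg3 and 7.42, 8.99 and 8.81 CPM with GO-Rg3-DOX. These sums depend on which genes are in them. With HIST1H2BK and HIST1H1C the first set averaged 85.6 ± 3.69 CPM in untreated cells and 77.4 ± 19.7 CPM with GO, a ratio of 0.904 in place of 1.10. Without HIST1H2AC the second set averaged 21.6 ± 0.688 and 14.1 ± 1.51 CPM, a ratio of 0.651 in place of 0.533 (SD, n = 3). The difference between the sets was not tested.

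**Figure D4:**
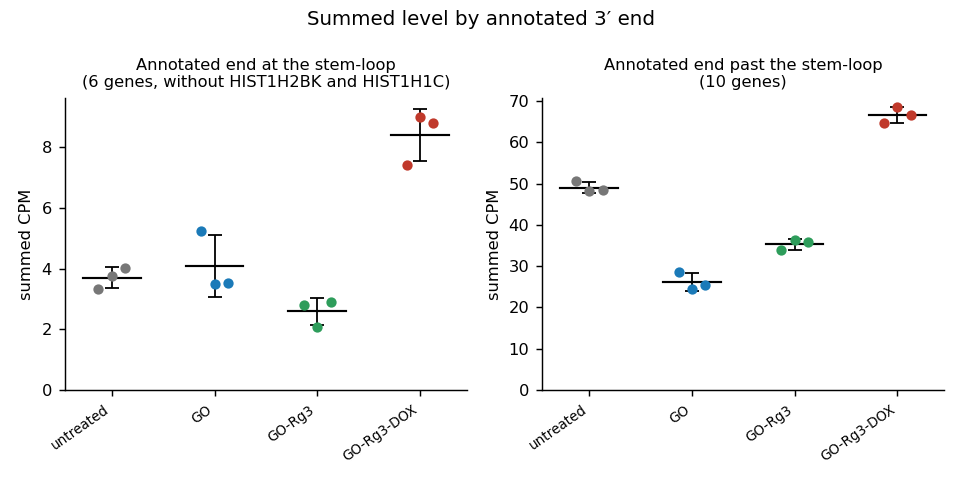
Summed CPM per sample of histone genes annotated to end at the stem-loop (left, 6 genes, without HIST1H2BK and HIST1H1C, which hold most reads of that set) and past it (right, 10 genes, HIST1H2AC included), for genes that pass the count limit without GO-Rg3-DOX samples. Wide bars are group means and error bars SD (n = 3); axes start at 0. GO samples lie at 24.4 to 28.5 CPM on the right, below all other groups, and overlap the untreated samples on the left. The genes on the left include HIST1H2BH, which was higher with GO.

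By position, all 4 members of the HIST2 cluster on chromosome 1 were called higher with GO-Rg3-DOX, as were 13 of 27 members of the HIST1 cluster on chromosome 6, and neither the HIST3 nor the HIST4 member. Among genes that pass the count limit without GO-Rg3-DOX samples, 6 of 17 in HIST1 and 1 of 1 in HIST2 were called. Of all genes tested, 12.6% were called higher. In 3 pairs the starts faced away from each other 236 to 248 bases apart, so that both genes share the region between them. In the pair HIST2H2BE and HIST2H2AC, shown above by its promoter window, the log2 fold changes with GO-Rg3-DOX were 1.83 ± 0.13 and 2.15 ± 0.43, both called. HIST2H2AC passed the count limit only through its GO-Rg3-DOX samples, so its call does not count as support. In the pair HIST1H2BC and HIST1H2AC they were 0.58 ± 0.29 and -0.14 ± 0.11, neither called. In the pair HIST1H2BJ and HIST1H2AG they were 0.09 ± 0.17 and 1.45 ± 0.29, and HIST1H2AG was called. With GO, HIST1H2AC and HIST1H2BJ were called lower and their partners HIST1H2BC (-0.44 ± 0.31) and HIST1H2AG (-0.33 ± 0.33) were not.

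Genes that act on histone mRNA fell with GO-Rg3-DOX more often than they rose. Of 23 genes of histone transcription and 3′ processing, 11 were lower and 2 higher at an adjusted p below 0.01, where 30.5% of all genes were lower and 25.5% higher, with a median log2 fold change of -0.59. SLBP, which binds the stem-loop, averaged 144 ± 3.06 CPM in untreated cells, 77.8 ± 6.62 CPM with GO, 121 ± 10.1 CPM with GO-Rg3 and 27.1 ± 0.853 CPM with GO-Rg3-DOX (SD, n = 3). Its log2 fold changes against untreated cells were -2.41 ± 0.10 with GO-Rg3-DOX (SE; adjusted p = 8.6e-11, edgeR) and -0.89 ± 0.09 with GO (adjusted p = 8.1e-06), and -0.25 ± 0.09 with GO-Rg3 (adjusted p = 0.21).

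ZNF473, a zinc finger protein of histone pre-mRNA cleavage, was the other large fall, from 32.04 to 6.196 CPM (log2 fold change -2.37 ± 0.11). NPAT averaged 17.3 ± 0.657 CPM in untreated cells and 4.89 ± 0.712 CPM with GO-Rg3-DOX (-1.82 ± 0.17, adjusted p = 2.3e-07, edgeR). CASP8AP2 averaged 29.5 ± 1.43 and 16.5 ± 2.66 CPM (-0.84 ± 0.20, adjusted p = 0.0017). With GO, NPAT (-0.23 ± 0.16) and CASP8AP2 (-0.61 ± 0.20) did not pass. The 2 genes that rose with GO-Rg3-DOX were SYMPK (1.05 ± 0.13), a scaffold of the cleavage complex, and SRRT (0.73 ± 0.11), which links it to the cap. With GO 8 of the 23 were lower and none higher, beside 15.4% and 12.1% of all genes, and with GO-Rg3 none passed. Between the carriers 4 were higher with GO-Rg3 than with GO and none lower, beside 7.33% and 6.25% of all genes, SLBP among them (0.63 ± 0.09, adjusted p = 0.0003).

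**Figure D5:**
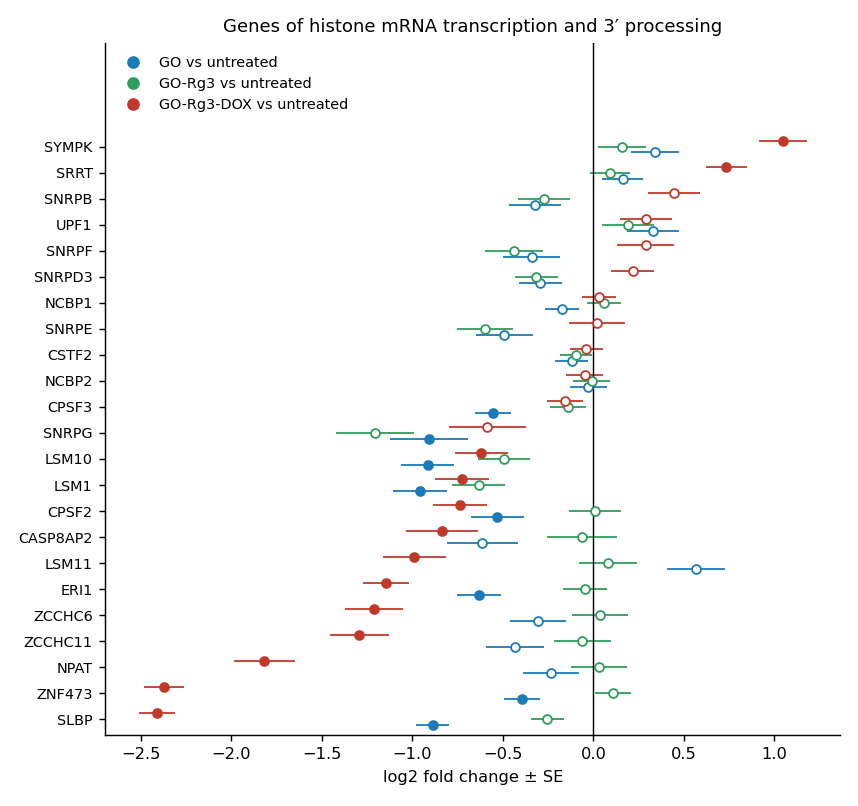
Log2 fold change against untreated cells, with its standard error, of 23 genes of histone transcription and 3′ processing. Filled points passed an adjusted p below 0.01. SLBP, ZNF473 and NPAT fell by 1.82 to 2.41 with GO-Rg3-DOX, and 11 of the 23 genes were lower in that comparison.

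Other histone-related lists held both higher and lower genes with GO-Rg3-DOX, as did all genes, of which 25.5% were higher and 30.5% lower at an adjusted p below 0.01. Of 11 replication-independent (variant) histone genes, most of which give only polyadenylated mRNA, 4 were higher and 3 lower, with a median log2 fold change of 0.03. H2AFJ (1.51 ± 0.19) and H1FX (1.22 ± 0.25) had the largest rises, and CENPA, the centromeric H3 variant (-1.72 ± 0.16), and H1F0 (-0.88 ± 0.09) the largest falls. Of 22 histone chaperone genes, 7 were higher and 6 lower (median -0.02). ASF1B (1.28 ± 0.09) and CABIN1 (1.16 ± 0.11) rose most, and HJURP, the CENPA chaperone (-2.20 ± 0.11), and ASF1A (-1.87 ± 0.15) fell most.

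Of 28 genes of S phase entry and DNA replication, 9 were higher and 9 lower with GO-Rg3-DOX, again beside 25.5% and 30.5% of all genes (median -0.04 beside -0.06 for all genes). With a log2 fold change beyond 1 as well, 0 were called higher and 7 lower, beside 12.6% and 18.2% of all genes. The largest rises were of the helicase subunits MCM5 (0.88 ± 0.14) and MCM2 (0.77 ± 0.12), and the largest falls of the phosphatase CDC25A (-1.37 ± 0.08) and cyclin E1, CCNE1 (-1.32 ± 0.10). With GO 12 of the 28 were lower and 1 higher, beside 15.4% and 12.1% of all genes, and with GO-Rg3 none passed. Between the carriers 8 were higher with GO-Rg3 and none lower, beside 7.33% and 6.25% of all genes. With GO, 1 variant histone gene was higher and 5 lower, and 1 chaperone gene was higher and 7 lower, beside the same shares of all genes with GO as above.

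A list of RNAs that usually lack poly(A) tails shows what else of this kind the libraries retained. Of 18 such RNAs, 8 had enough counts to be tested. RPPH1 and RNU12, at 0.035 and 0.04 CPM in untreated cells, passed the count limit only through treated samples. That way of passing favours RNAs higher with treatment, so the values below are a description and do not count as support. With GO-Rg3-DOX 3 of them were higher and 2 lower at an adjusted p below 0.01, beside 25.5% and 30.5% of all genes, and their median log2 fold change was 1.30. With GO 3 were higher and 1 lower, beside 12.1% and 15.4% of all genes. These were RN7SK, RMRP and RPPH1, at 3.48, 1.02 and 0.712 CPM with GO against 0.947, 0.248 and 0.035 CPM in untreated cells, and SNORD3A, at 0.0089 against 0.911 CPM, named after their values were seen. With GO-Rg3 none passed. The largest rises with GO-Rg3-DOX were of RNU12 (4.31 ± 0.44, mean 0.97 beside 0.04 CPM untreated) and RN7SK (3.47 ± 0.36, mean 10.5 beside 0.95 CPM). The 2 RNAs lower with GO-Rg3-DOX were SNORA73B (-1.76 ± 0.24) and SNORD3A (-1.55 ± 0.44). The list summed to 9.31 to 16.9 CPM in untreated, 12.7 to 21.2 CPM in GO, 10.4 to 14.9 CPM in GO-Rg3 and 18.2 to 35.6 CPM in GO-Rg3-DOX samples. Its part in the histone levels was not tested.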

How the data were processed

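Huh7 RNA from 12 samples, 3 in each of 4 groups, was analysed. The authors prepared TruSeq Stranded mRNA libraries, sequenced 151-base paired reads, mapped them to GRCh37 and deposited raw counts per gene made with featureCounts, per the labels and the study's methods. Annotation release and strand setting of the counting are not given in the sources used here. The 17092 genes that reached 10 counts in 3 or more samples were fitted with edgeR 4.0.16 in R 4.3.3 (TMM scaling, quasi-likelihood test, all 12 samples in 1 model). P-values were adjusted by Benjamini-Hochberg over all of them, and a gene was called where its adjusted p was under 0.01 and its log2 fold change lay beyond 1 in either direction. The fit was first tested on simulated counts with known changes.

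Full values are given for the 2 members of each type with the highest mean CPM and the 3 largest called changes in each direction per comparison. HIST2H2BE, HIST4H4 and the paired genes were added after their values were seen. Of each gene list, the 2 largest rises and falls with GO-Rg3-DOX and SLBP, NPAT and CASP8AP2 are named. The members and lists were chosen with earlier results of these data known. Of the members, 18 matched the GENCODE 44 annotation by Ensembl ID and 13 by a RefSeq synonym. Within groups, the lowest correlation of log2 CPM was 0.985. Alternatives were DESeq2 1.42.0, other scalings, filters, offsets and thresholds, a replicate block, and leaving out samples.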

Additional observations from a re-analysis of the deposited data

Results flagged for a closer look

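Histone rows outside the 33 genes also held reads with GO-Rg3-DOX, above the level of every untreated sample. The 59 rows under the count limit summed to 4.78, 8.84 and 6.71 CPM with GO-Rg3-DOX, a mean of 6.78 CPM, and to 1.56, 2.05 and 1.67 CPM in untreated samples. The 14 rows left out as pseudogenes summed to 0.659, 1.04 and 1.64 CPM with GO-Rg3-DOX, a mean of 1.11 CPM, and to 0.212, 0.448 and 0.165 CPM in untreated samples. In both sets all GO-Rg3-DOX samples lay above all untreated ones, and neither difference was tested.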

How the results depend on the processing

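Under 14 alternative settings, GO-Rg3 against untreated cells gave no called histone gene in any of them, and the 17 rises with GO-Rg3-DOX became 5 with genes at 10 or more counts in every sample, which leaves 14 histone genes. Leaving out a sample gave 10 to 18 rises. The lowest counts, 10 without GO-Rg3-DOX replicate 2 and 11 without replicate 3, came with fewer histone genes passing the count limit, and with the genes of the full limit kept the range was 16 to 18. That alternative, the sums without HIST1H2BK and the changed gene sets by annotated end were chosen after seeing the data. With library totals in place of TMM, 1 gene, HIST4H4, was called lower and 15 higher, while the median of all genes moved from -0.06 to -0.47 on the log2 scale.

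For GO, the count of higher genes was 1 without a fold threshold, with RLE scaling, with genes at 10 or more counts in every sample and with DESeq2 (0 to 1 on leaving out a sample), each time HIST1H2BH. The 4 lower genes became 2 with that stricter limit and with the GC offset, alone or with the replicate block (2 to 4 on leaving out a sample). Between the carriers, 2 genes were higher without a fold threshold and 1 without a count limit. The count of lower genes was 2 at an adjusted p below 0.05, without a count limit, with DESeq2, with the replicate block and with the length offset and block, 0 with the 6 samples compared alone, and 1 to 2 on leaving out a sample.

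Correlations of same-numbered samples' deviations ran from -0.02 to 0.24. They exceeded the mean of the other-numbered ones in every pair but 1, of GO-Rg3-DOX, but at least 1 pair of each comparison was at or under 0.1, the limit set for pairing, so the numbers were not taken as pairs. With the replicate block GO-Rg3-DOX gave 17 higher genes, 16 of them shared, and GO gave 4 lower ones.

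Some small log2 fold changes changed sign, and the causes were not tested. With GO-Rg3-DOX, HIST1H2AC was 0.28 with the GC offset and 0.28 with the offset and block. HIST1H2BJ was -0.33 with library totals, -0.011 with the length offset and -0.0093 with that and the block, and -0.0213 to 0.192 on leaving out a sample. HIST1H3D was -0.086 with library totals, -0.0255 with the GC offset and -0.0258 with that and the block. HIST3H2A was -0.27 with library totals and -0.0153 to 0.301 on leaving out a sample, and the H2A sum was -0.30 with library totals. With GO, HIST1H2BK ranged from -0.27 to 0.0552 on leaving out a sample.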
